A study of Eohaustorius estuarius with 16 samples.

Results

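A group of 49 probes was found at a high level on some of the 16 arrays and at a low level on the rest, with an empty interval of at least 1.5 log2 units between the sides. They were chosen from 8507 probes in several steps. A level is the log2 processed intensity minus the array's 75th percentile, averaged over the spots of a probe. In all 7621 probes were well above background, a mark set by the scanner software, on at least 3 of 16 arrays, and 7599 of these had a value on every array. The largest interval between neighbouring sorted levels, with at least 3 arrays on each side, was called the gap, and 118 of the 7599 probes (1.55%) had a gap of at least 1.5. From these 118, 16 were removed because the cyfluthrin arrays all lay on 1 side, 20 because their split was control replicates 4 and 5 with cyfluthrin replicates 2, 4 and 7 against the rest, and 33 because the group means lay 1 or more apart. The remaining 49 (0.645% of the probes assessed) are the members, so the existence of the gap and the closeness of the group means were fixed by the choice and are given as description only.

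The samples were RNA extracts of whole Eohaustorius estuarius, an amphipod crustacean that burrows in estuarine sediment and serves in toxicity tests. The control group (8 arrays) was kept for 10 days in sediment spiked with solvent. The cyfluthrin group (8 arrays) was kept for 10 days in sediment spiked with cyfluthrin, a pyrethroid insecticide acting on voltage-gated sodium channels, at a nominal 1.6 µg/kg. Extracts were made in a single laboratory for a comparison of 6 laboratories, and the arrays of 1 of these, laboratory F, were used here. The sources used here do not state whether an extract came from 1 animal, nor the strain, age, sex, size or moult stage. Whole-body RNA mixes all tissues, so fewer cells that make a transcript and less of it per cell cannot be told apart.

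Many transcripts of a crustacean are known to be made only at certain times or in certain individuals, such as those of cuticle proteins around a moult or of yolk proteins in reproducing females. No such role can be given to any member, because the files pair each probe only with the number of an assembled contig. Each of the 49 members lies on its own contig. The probe identifier is given with its contig number at first mention.

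Both groups were spread over 2 slides, 4 arrays of each group per slide. The arrays' 75th percentiles lay between 166 and 310 intensity units, and 6675 to 7422 probes per array were well above background. No spot was saturated. The array labelled control replicate 3 stood apart. Its 75th percentile, 166, was the lowest, and it had the most spots marked as outliers, 52 against 10 to 46 on the others. It also had a correlation of 0.991 with cyfluthrin replicate 3 over the probes that are not members. That was the highest of the 120 pairs of arrays, whose next value was 0.982. Without that array 45 probes met the rule, 43 of the 49 among them. Some results below are also given without it. The group means, the exposure differences of single members and the summaries over pairs of arrays include it.

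The description "on-off" held for only some of the members. At 17 of 49 (34.7%) the probe was not well above background on any array of the low side, so the low level there is only a bound. Another 15 (30.6%) exceeded background clearly on all 16 arrays and so had a high and a lower measured level. At the other 17 the low side held arrays of both kinds. The high side was well above background throughout at 48 of 49. The members are called two-level transcripts here after the sides of the gap. The name does not mean that each side held a single level, and levels within a side could lie further apart than the gap.

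Across the 49 members the gap ran from 1.51 to 5.36 log2 units with a median of 2.06. The mean of the high side exceeded that of the low side by 2.37 to 8.35 log2 units with a median of 4.73, a median ratio of 26.6-fold between measured means. Where the low side was not well above background, the ratio was computed against the lowest signal among probes well above background on each array, or the probe's own where that was higher. At these 17 members the high side was at least 4.004-fold to at least 117-fold higher. These bounds are approximate, because the lowest such signal on an array is not a detection limit for every probe. At the member with the lowest bound, 5 of its 6 high arrays were well above background. The levels on the high side ranged over less than the gap itself at 27 of 49 members. Close to the limit, the probes CUST_3557_PI425439775 (contig 7182) and CUST_1815_PI425439771 (contig 7857) were taken in with gaps of 1.51 and 1.53. The probes CUST_4936_PI425439775 (contig 5132) and CUST_506_PI425439775 (contig 2993) were left out with gaps of 1.497 and 1.485. At the limit on the group means, CUST_1114_PI425439771 (contig 3644) was taken in with a difference of -0.99 and CUST_1361_PI425439771 (contig 7785) was left out with -1.002.

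The 49 members divided the arrays in only 16 ways. No split was the mirror image of another, and none was the division by slide. In 31 members at most 8 arrays were high, and in 18 more than 8. After the values were seen, the splits were gathered by the arrays they share into 5 sets named A to E, of 4, 14, 23, 5 and 3 members. The sets are a way to describe the values and carry no test. A correlation between members of a set, over the 16 arrays, is fixed in large part by the shared split.

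**Figure D1:**
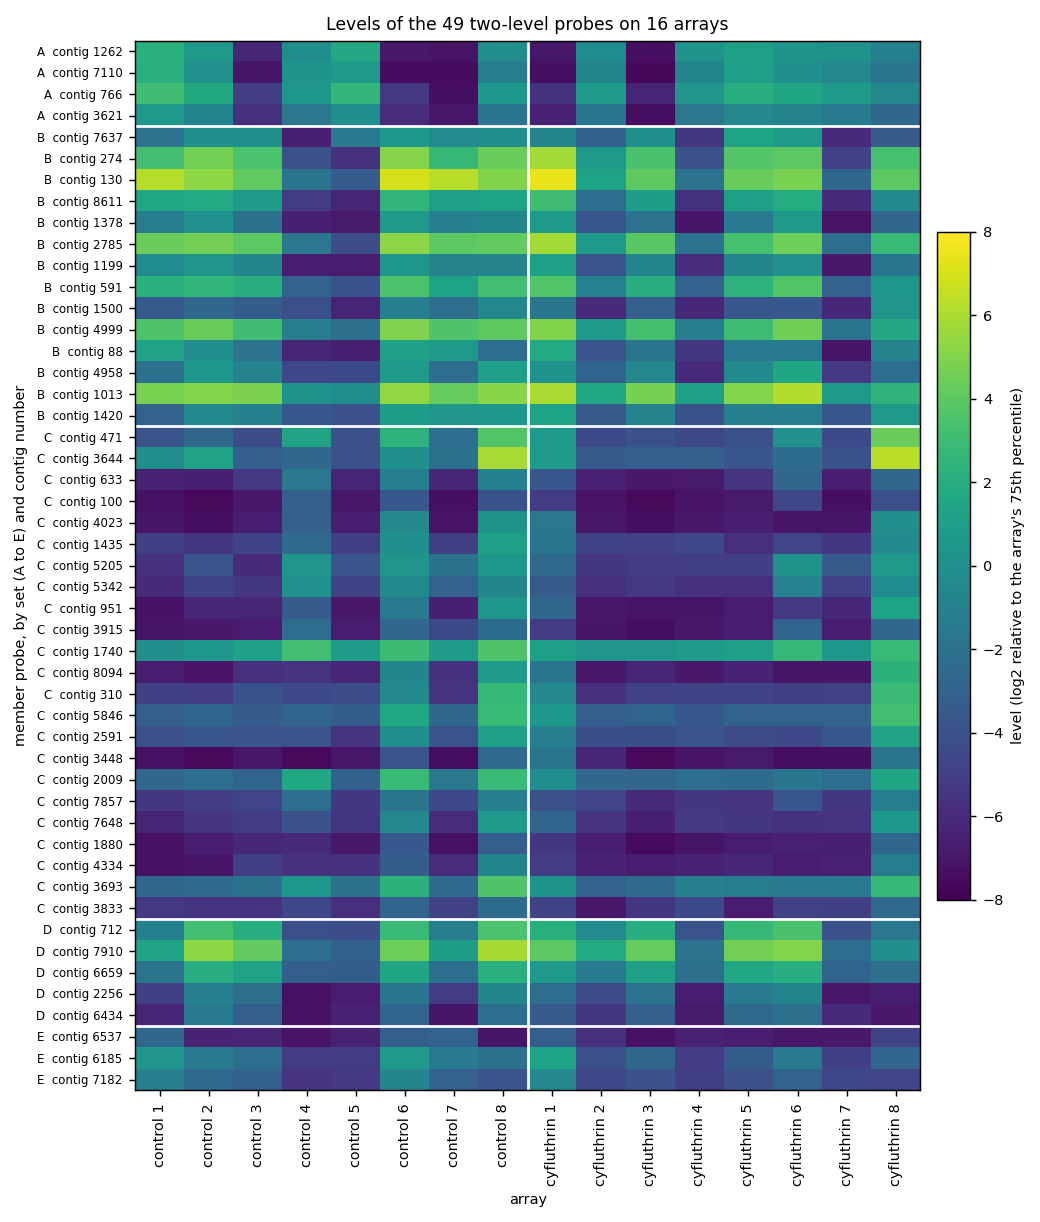
Level of each of the 49 members (vertical axis, by set and contig number) on each of the 16 arrays (horizontal axis, control then cyfluthrin), as colour in log2 units after subtracting the 75th percentile of the array. Set A is dark on 5 arrays, set B on cyfluthrin replicates 4 and 7 throughout, and set C is on its high side on control replicates 6 and 8 and cyfluthrin replicate 8 throughout.

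Set A held the members nearest to on and off. All 4 were low on the same 5 arrays, control replicates 3, 6 and 7 and cyfluthrin replicates 1 and 3, and high on the other 11. None of the 4 was well above background on any low array, and all 4 were on all 11 high arrays. Their gaps ran from 3.27 to 5.36.

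The largest gap of all members belonged to CUST_2540_PI425439380 (contig 1262). Its level was -6.31, -6.90 and -7.14 on control replicates 3, 6 and 7, and -7.00 and -7.35 on cyfluthrin replicates 1 and 3. On the 11 high arrays it ran from -0.95 to 2.20 with a median of 0.27. Both treatment groups held arrays at either level, which the rule requires for cyfluthrin and constrains for control through the limit on group means. The mean was 0.45 ± 0.91 on the high side (SD, n = 11) and -6.94 ± 0.39 on the low side (SD, n = 5), at least 94.9-fold higher. By treatment the means were -2.02 ± 4.03 in controls and -1.71 ± 3.42 with cyfluthrin (SD, n = 8 each). Their closeness was fixed by the rule.

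CUST_2057_PI425439771 (contig 7110), a probe with 1 spot, was at -7.64 to -7.00 on the same 5 arrays and at -1.80 to 2.17 on the others, at least 68.8-fold higher. CUST_4750_PI425439775 (contig 766) was at -7.42 to -5.08 and at -0.55 to 3.12, at least 117-fold higher. CUST_4260_PI425439380 (contig 3621) was the dimmest, at -7.40 to -5.87 and at -2.60 to 0.60, at least 29.4-fold higher. These 3 were the probes most like CUST_2540_PI425439380 among all assessed, with Pearson correlations over the 16 arrays of 0.994, 0.991 and 0.992 for contigs 7110, 766 and 3621.

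Within set A the levels also moved together among the 11 high arrays alone, which the rule did not use as a measure of likeness. The 6 pairs of members had correlations of 0.909 to 0.988 over those 11 arrays, with a median of 0.950. At all 4 members control replicate 1 was the highest array and cyfluthrin replicate 8 the lowest of the high side. All 4 probes were read from the same 11 extracts under the same scaling, so these correlations describe those extracts. Membership in set A depended on which low array was left out. All 4 still met the rule without control replicate 3, but 3 without cyfluthrin replicate 1 and only 1 without cyfluthrin replicate 3. Over all 49 members, the limit on group means accounted for all 5 lost without cyfluthrin replicate 3. It accounted for 15 of the 17 lost without cyfluthrin replicate 1.

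Few other probes followed set A. Only 3 of the 7550 probes that are not members had a correlation above 0.8 with the mean of set A, and only CUST_4258_PI425439380 (contig 2236) was above 0.9, at 0.936. That probe had a gap of 1.69 and was left out because its cyfluthrin mean lay 1.16 above its control mean.

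**Figure D2:**
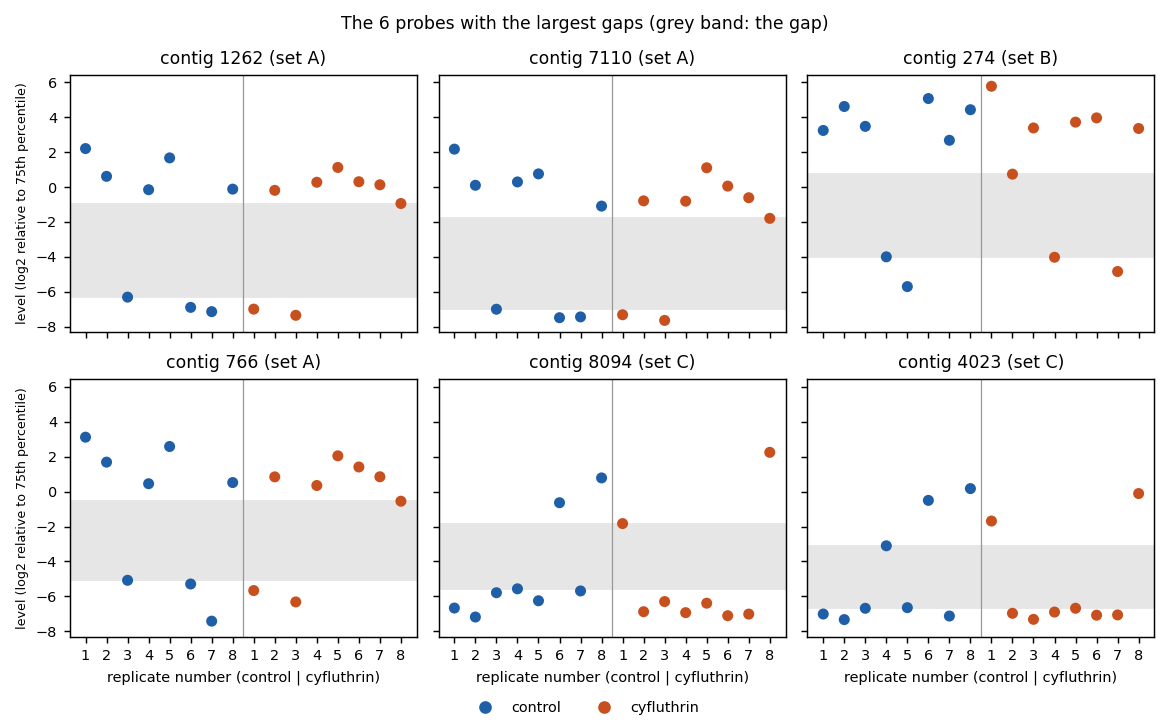
Level (vertical axis, in log2 units after that subtraction) of the 6 members with the largest gaps, one point per array, by replicate number (horizontal axis, control in blue, cyfluthrin in orange). The grey band is the gap, which is empty of arrays by definition. Both colours lie above and below it in every panel, which the rule requires for cyfluthrin and constrains for control through the limit on group means.

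Set B held 14 members in 5 splits. Cyfluthrin replicates 4 and 7 were low at all 14, and 9 arrays were high at all 14. The commonest split, with 10 members, had control replicates 4 and 5 low as well. On all 16 arrays 6 of the 14 were well above background, so for these the low side was a lower level and not an absence of signal. A further 5 were not well above background on any low array, where the high side was at least 12.3-fold to at least 47.9-fold higher.

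The widest gap of set B, 4.74, was that of CUST_1357_PI425439775 (contig 274). Its low arrays were at -4.001 and -5.706 (control replicates 4 and 5) and at -4.02 and -4.84 (cyfluthrin replicates 4 and 7). The 12 high arrays ran from 0.74 to 5.77 with a median of 3.60. High and low means of 3.70 ± 1.28 (SD, n = 12) and -4.64 ± 0.81 (SD, n = 4) gave a ratio of 326-fold between measured means. Of its 4 low arrays, 3 were well above background.

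CUST_6378_PI425439380 (contig 130) was among the brightest members. It reached 7.497 on cyfluthrin replicate 1 and 6.95 on control replicate 6, and was still well above background on all 16 arrays. The low arrays lay between -3.35 and -1.86, and the ratio of the sides was 173-fold.

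Cyfluthrin replicate 2 held an intermediate place in set B. At all 10 members of the commonest split it was the lowest array of the high side. It lay 1.53 to 4.74 log2 units above the 4 low arrays (median 2.27) and 0.55 to 2.67 below the next array (median 1.72). On a relative scale, where 0 is the mean of the low side and 1 that of the high side, it stood at 0.43 to 0.64 with a median of 0.50. The 20 probes removed for having cyfluthrin replicate 2 on the low side together with these 4 arrays have the split closest to it. With the array itself taken out of both means, its relative level was 0.41 to 0.62 in the 10 members (median 0.48) and -0.02 to 0.49 in those 20 probes (median 0.25). The ranges overlap, and the division between these members and the removed probes rests on that array. Without it 4 of the 14 members of set B still met the rule. Leaving that array out turns the removed split into this commonest split, so its 10 members were lost through that step of the rule. Of these 10, 0 were lost through the gap or the group means. The number of set B members kept was also 4 without control replicate 4, 5 without control replicate 5, 6 without cyfluthrin replicate 8 and 7 without cyfluthrin replicate 1. Over all 49 members, the limit on group means accounted for 11 of 13 lost without control replicate 4 and 16 of 16 without control replicate 5. It accounted for 15 of 26 without cyfluthrin replicate 8 and 15 of 17 without cyfluthrin replicate 1.

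The 91 pairs within set B had correlations of 0.460 to 0.995 over the 16 arrays, with a median of 0.915. Another 35 of the 7550 probes outside the members had a correlation above 0.9 with the mean of set B, and 77 were above 0.8. The closest, CUST_4711_PI425439775 (contig 5067) at 0.994, is one of the 20 removed probes.

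Set C, the largest with 23 members, was high on few arrays. Its size rested on cyfluthrin replicate 8, without which only 5 of the 23 met the rule. Over all 49 members, 15 of the 26 lost without that array were lost through the group means and 5 through the gap or detection. Control replicates 6 and 8 and cyfluthrin replicate 8 were high at all 23. Control replicate 4 joined them at 12 members, cyfluthrin replicate 1 at 12, cyfluthrin replicate 6 at 7, and control replicates 1 and 2 at 1 each. The remaining 8 arrays were low at all 23. On the low side 7 of the 23 were not well above background on any array, 6 were well above background on all 16, and 10 were mixed.

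CUST_435_PI425439771 (contig 8094) had the widest gap of set C, 3.74. Its level was -0.63 and 0.79 on control replicates 6 and 8 and -1.83 and 2.25 on cyfluthrin replicates 1 and 8. The other 12 arrays lay between -7.18 and -5.57. The 4 high arrays, 2 of each treatment, thus stood apart. Only 1 of the 12 low arrays was well above background, so the ratio of the measured means, 98.8-fold, rests mostly on low values not measured above background.

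CUST_4671_PI425439775 (contig 4023) was also high on control replicate 4, at -3.10, below the other high arrays at -1.68 (cyfluthrin replicate 1), -0.50 (control replicate 6), -0.11 (cyfluthrin replicate 8) and 0.18 (control replicate 8). None of its 11 low arrays, at -7.33 to -6.65, was well above background, and the high side was at least 33.7-fold higher. CUST_5138_PI425439775 (contig 310), with 1 spot, split the arrays like contig 8094, at -0.49 to 2.92 against -5.72 to -3.96. Only 4 of its 12 low arrays were well above background, and its measured means had a ratio of 65.3-fold.

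Some members of set C were high on only 3 arrays. CUST_2237_PI425439775 (contig 7648), measured by 10 spots, was at -0.58 and 0.57 on control replicates 6 and 8 and at 0.53 on cyfluthrin replicate 8. Its next array, cyfluthrin replicate 1, was at -2.87, and the other 12 lay between -6.59 and -4.01. CUST_4562_PI425439380 (contig 1880) was dim throughout, at -3.61 and -3.19 on those control arrays and -2.66 on cyfluthrin replicate 8, with the low side at -7.55 to -5.41 and a high side at least 7.38-fold higher.

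The high arrays of set C had an order among themselves. Median relative levels were 1.16 on control replicate 8, 1.11 on cyfluthrin replicate 8 and 0.93 on control replicate 6. They were 0.63 on cyfluthrin replicate 1, 0.59 on control replicate 4 and 0.11 on cyfluthrin replicate 6. Control replicate 6 was the lowest of the 3 constant arrays at 17 of 23 members. Control replicate 8 was the highest of them at 10 and cyfluthrin replicate 8 at 11, so these arrays had no fixed order at the top. Pairs of members had correlations of 0.503 to 0.987 with a median of 0.859, and 16 probes outside the members were above 0.9 with the mean of the set.

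**Figure D3:**
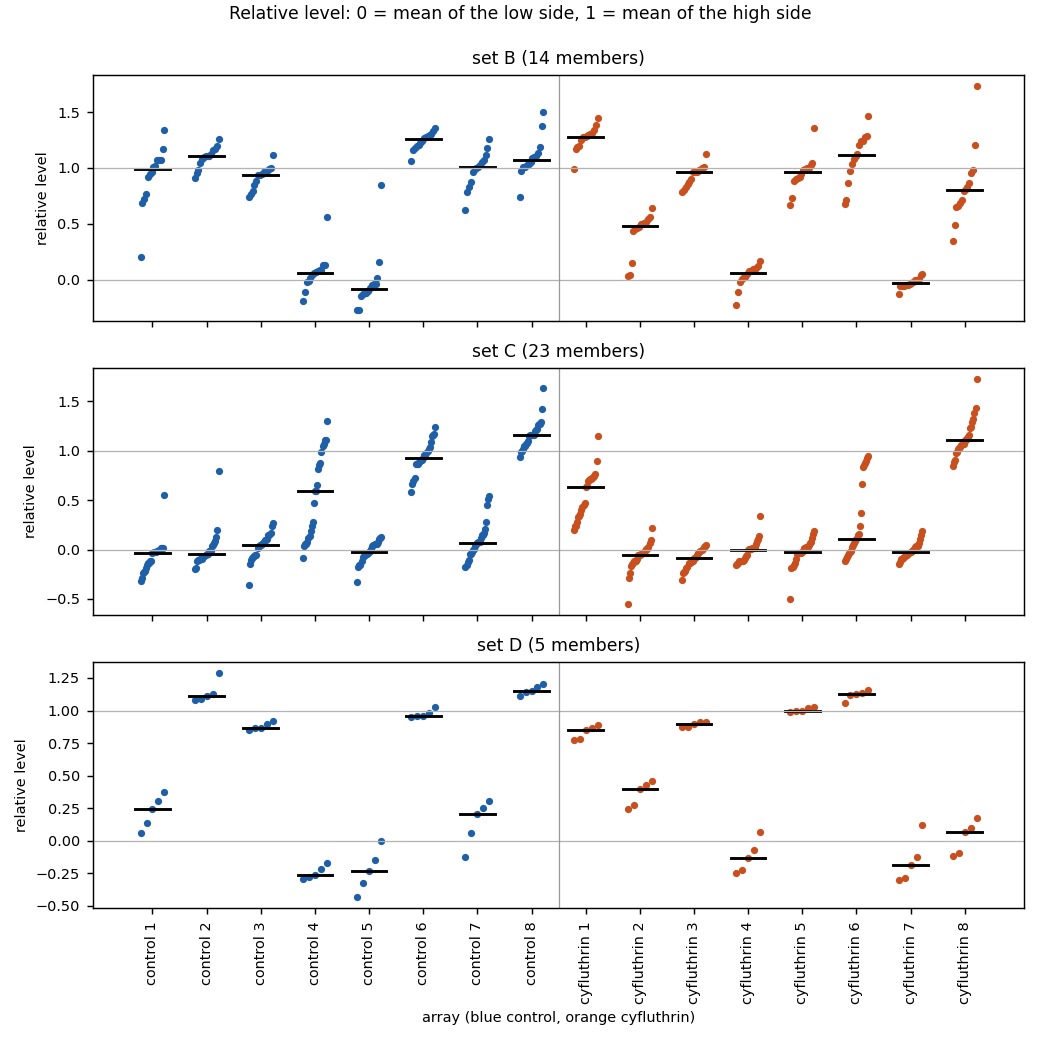
Relative level (vertical axis, 0 the mean of a member's low side and 1 that of its high side) of every member of sets B, C and D on each array (horizontal axis, control in blue, cyfluthrin in orange). Points are members sorted by value within an array, and the bar is the median. Cyfluthrin replicate 2 has a median of 0.48 in set B, and cyfluthrin replicate 1 and control replicate 4 have medians of 0.63 and 0.59 in set C.

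Set D divided the arrays evenly. Its 5 members were all high on control replicates 2, 3, 6 and 8 and cyfluthrin replicates 1, 3, 5 and 6, and low on the other 8. The gaps lay close together, from 2.03 to 2.30. On the low side 1 of the 5 was not well above background on any array, and 3 were well above background on all 16 arrays.

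CUST_1889_PI425439380 (contig 712) ran from 2.01 to 3.47 on its high arrays and from -4.23 to -0.28 on its low arrays. Means of 2.73 ± 0.59 and -2.52 ± 1.66 (SD, n = 8 each) gave a ratio of 38.0-fold. CUST_1419_PI425439771 (contig 7910) ran from 3.97 to 5.81 and from -3.02 to 1.78, a ratio of 41.7-fold. In both, the low side was more spread than the high side, with control replicates 4 and 5 and cyfluthrin replicates 4 and 7 at its bottom.

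The 10 pairs of set D had correlations of 0.850 to 0.955 over the 8 high arrays alone, with a median of 0.917. Without control replicate 3 the median over 7 arrays was 0.922. On the 8 low arrays the median was 0.839, with a range from 0.363 to 0.987. Only 4 probes outside the members were above 0.9 with the mean of the set, the closest being CUST_541_PI425439771 (contig 2631) at 0.945 with a gap of 1.05.

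Set E had 3 members, high on control replicates 1 and 6 and cyfluthrin replicate 1, and in 1 of them on control replicate 7 too. Their gaps of 1.51 to 1.72 were among the smallest, and 0 of the 3 met the rule without cyfluthrin replicate 1. That array was the only cyfluthrin array on the high side of all 3. Leaving it out left that side without the cyfluthrin array that the rule requires. CUST_3557_PI425439775 was at -1.03 and -0.73 on those control arrays and at -0.47 on cyfluthrin replicate 1, with the other 13 arrays between -5.51 and -2.54. Its measured means had a ratio of 10.2-fold, with 10 of the 13 low arrays well above background.

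Levels between the sides were a small share of all values but occurred at most members. Of the 784 values of the 49 members, 80 (10.2%) had a relative level between 0.25 and 0.75. Set A had 1 of its 64 values there, set B 27 of 224, set C 35 of 368, set D 8 of 80 and set E 9 of 48. Only 5 of the 49 members had no such value, 3 in set A, 1 in set C and 1 in set D. By array, cyfluthrin replicates 1 and 2 had the most such values, 17 and 15, while control replicate 5 and cyfluthrin replicates 3 and 7 had 0.

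The arrays differed widely in how many members were high. Control replicates 8 and 6 were high at 46 and 45 of 49, cyfluthrin replicate 8 at 40 and cyfluthrin replicate 1 at 34. At the other end, control replicate 5 was high at 5 and cyfluthrin replicates 4 and 7 at 4 each, the 4 members of set A. Control arrays were high at 24.0 ± 14.4 members and cyfluthrin arrays at 21.1 ± 13.3 (SD, n = 8 each), which the rule on group means constrains. Over the whole array, cyfluthrin replicates 4 and 7 had 7130 and 7269 probes well above background, against 7314 and 7422 on control replicates 6 and 8 and 6721 on control replicate 5.

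**Figure D4:**
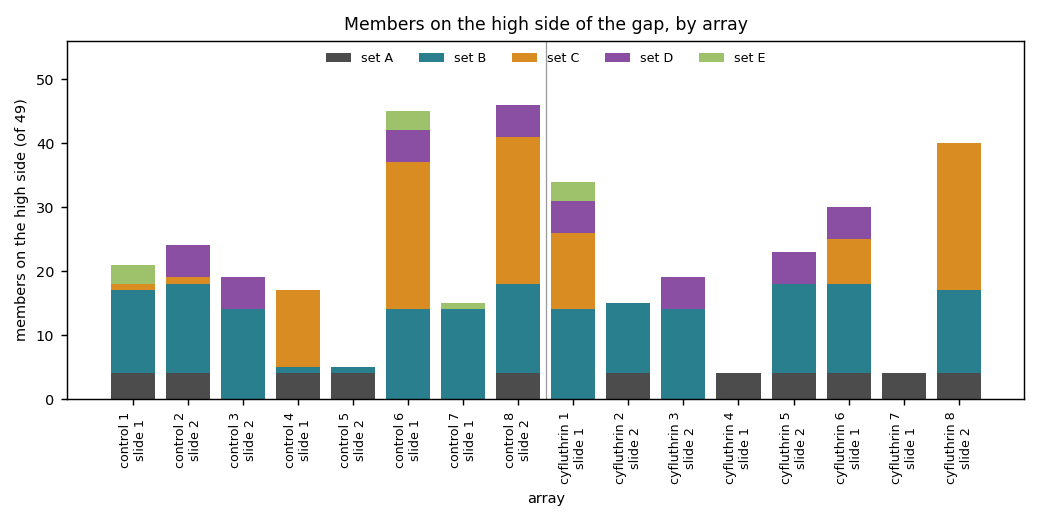
Number of the 49 members on the high side of the gap (vertical axis) for each array (horizontal axis, with its slide), stacked by set. Control replicates 6 and 8 reach 45 and 46, and cyfluthrin replicates 4 and 7 reach 4, all of set A.

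The slide was not used to choose the members, so the high counts could be compared between slides. Arrays on slide 2 were high at 23.9 ± 13.3 members and arrays on slide 1 at 21.3 ± 14.4 (SD, n = 8 each). The difference of 2.63 was smaller than the spread between arrays (two-sided exact permutation test, p = 0.722). Without control replicate 3 it was 3.32 (exact p = 0.669). Among control arrays alone it was -1 and without control replicate 8 it was -0.54, while among cyfluthrin arrays alone it was 6.25. The other alternatives run kept the direction, and none gave an exact p under 0.05.

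Slide differences were also tested over all 7599 probes with treatment in the model. By limma 16 probes passed at an adjusted p under 0.05, or 0.211% of those tested, and 466 had an unadjusted p under 0.05. Of the 49 members 0 passed, and 0 had an unadjusted p under 0.05. Their median absolute difference between slides was 0.60 log2 units against 0.10 over all probes, with the wide spread of the members that the rule itself selects. Contig 7910 had the largest difference, 1.67 ± 1.47 (SE) higher on slide 2, with a limma adjusted p of 0.965.

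Exposure was the contrast that the rule used, so its values are a description. In limma 581 of the 7599 probes passed at an adjusted p under 0.05, which is 7.65%. Of the 49 members 0 passed and 0 had an unadjusted p under 0.05, with the mean difference limited by the rule itself. The cyfluthrin mean was the lower one at 42 of 49 members. Differences ran from -0.99 to 0.50 with a median of -0.45 log2 units, against a median of 0.008 over all 7599 probes. By set the cyfluthrin mean was lower at 0 of 4 in A, 14 of 14 in B and 22 of 23 in C. In D it was lower at 3 of 5 and in E at 3 of 3. Members of a set share most of their high and low arrays, so the 42 are not separate observations. For contig 1262 the difference was 0.31 ± 1.73 (SE) and for contig 274 it was -0.22 ± 1.87 (SE), in both less than the standard error. The count of 581 was 1040 without control replicate 3, 345 without control replicate 8, 303 with replicate number as a block, 122 on slide 1 alone and 0 on slide 2 alone. In each of these fits 0 members passed.

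Pairs of arrays were compared by the number of members at which they fell on the same side. Over the 120 pairs the median was 29 of 49. Control replicate 3 and cyfluthrin replicate 3 fell on the same side at 49 of 49, with a median absolute difference of 0.26 log2 units, although 9 members differed by more than 1. Cyfluthrin replicates 4 and 7 also fell on the same side at 49 of 49, with a median absolute difference of 0.33 and 2 members more than 1 apart. Their correlation over the other probes was 0.980.

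Opposite pairs were as complete. Control replicate 6 fell on the opposite side from cyfluthrin replicates 4 and 7 at every one of the 49 members, and it shared a side with control replicate 5 at only 1. Medians by slide lay close together. Those by treatment did too, but the rule constrains them through the group means and the cyfluthrin arrays on both sides. Pairs of the same treatment shared a median of 26.5 members and pairs of different treatments 30, while pairs on the same slide shared 27.5 and pairs on different slides 29.5. The 7 pairs that share a replicate number other than 3, all of them on the same slide, shared 26 to 43, with a median of 31.

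**Figure D5:**
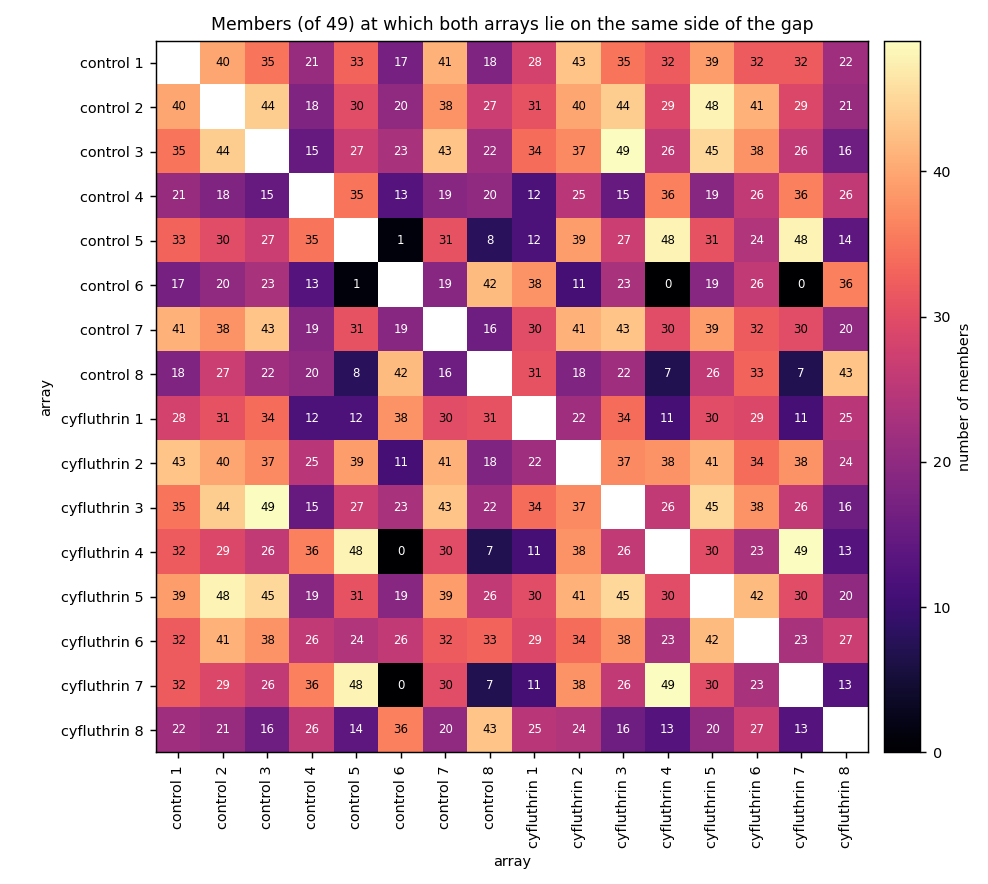
Number of the 49 members at which both arrays of a pair lie on the same side of the gap, as colour and as the printed count, for every pair of the 16 arrays on both axes. The pairs with 49 are control 3 with cyfluthrin 3 and cyfluthrin 4 with cyfluthrin 7, and the pairs with 0 are control 6 with cyfluthrin 4 and with cyfluthrin 7.

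Spots of the same probe gave the same division. Of the 39 members with more than 1 spot, every spot separated the same arrays in 39. Members were chosen on the average of these same spots with a gap of at least 1.5. Agreement between the spots was therefore largely fixed by the choice and is given as description only. The median SD between spots of a probe was 0.048 log2 units on the high side and 0.20 on the low side. At the 36 members with 2 spots, the difference between the sides differed between spots by a median of 0.13 and at most 0.92. The other 10 members have 1 spot and no such check. With only the first spot of each probe, 42 of the 49 members still met the rule, and with only the last spot 40 did. Both counts are out of all members, including those with 1 spot, where the first and last spot are the same.

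The number of members depended on the processing. With normexp background correction (offset 50) and quantile normalisation together, 11 probes met the rule and 7 of the 49 were among them. The sides stayed apart at all 49, with an interval of 0.12 to 2.42 and a median of 0.92. For contigs 1262, 7110, 274 and 766 that interval was 1.31, 1.12, 2.42 and 1.70. With quantile normalisation of the processed signal alone 46 probes met the rule, 42 of the 49 among them.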

How the data were processed

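The deposited scanner files hold spot intensity, background-subtracted within each array. Agilent Feature Extraction made them, in version 11.5.1.1 per the file headers and 9.1 per the submitters' processing notes. The authors also deposited log2 values whose scale is not given in the sources used here, and these served only as an alternative. Groups were read from the treatment labels, replicate numbers from the titles. Nothing states separate animals, so p-values measure only the spread between these extracts. Each array held 15208 spots, and 336 readings over the 16 arrays were marked as outliers. The 75th percentile was taken over all spots of an array, and marked readings were then left out of the average per probe. Being well above background on an array required the mark on 50% or more of a probe's spots.

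Exposure and slide were tested with limma 3.58.1 in R 4.3.3 (lmFit, eBayes, two-sided, Benjamini-Hochberg over 7599 probes), checked on simulated data. High-side counts were compared between slides with an exact permutation test. Slides come from the file headers. Members, sets and lists were chosen with earlier results of these data known. Named probes were the 6 members with the largest gaps, the 2 with the largest gaps in each of the 4 commonest splits, the members and probes next to the gap threshold, and the 3 probes most like the member with the largest gap. Contigs 2236, 5067, 2631, 3644 and 7785 were chosen after their values were seen. Probe sequences and gene names were not used here. Alternatives were other scalings, background correction, outlier spots kept, single spots, other filters and gap thresholds, the authors' table, blocks for slide or for replicate number, single slides, single treatments, and each array left out. The number of arrays limits the precision.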

Additional observations from a re-analysis of the deposited data

Results flagged for a closer look

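In 30 sets of levels, the 8 control or the 8 cyfluthrin arrays of a named member, the highest and lowest arrays were set against Dixon's critical value, which chance exceeds in about 5% of sets, and 2 sets exceeded it. In CUST_4562_PI425439380 (contig 1880, set C) cyfluthrin replicate 8 was at -2.66, and the nearest other cyfluthrin array was at -5.41. In CUST_3557_PI425439775 (contig 7182, set E) cyfluthrin replicate 1 was at -0.47, and the nearest other cyfluthrin array was at -2.89. In each case the array is the only cyfluthrin array on the high side of a member chosen for having a gap, so a distant array is part of how the member was chosen.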

How the results depend on the processing

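The rule found 49 probes, but 86 with a gap of at least 1, 27 with a gap of at least 2 and 11 with normexp and quantile normalisation together. It was 26 without cyfluthrin replicate 8, where 23 of the 49 were kept and 15 were lost through the group means, and 26 to 62 over all arrays left out in turn. Median scaling, quantile normalisation, outlier spots kept, single spots and the authors' table gave 43 to 50. Among named members, contig 1880 had a gap of 1.79, but 1.18 with quantile normalisation and 1.18 in the authors' table.

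In the exposure contrast 581 probes passed by limma, 122 on slide 1 alone and 0 on slide 2 alone, where 694 had an unadjusted p under 0.05. With arrays left out in turn 345 to 1040 passed, namely 375, 386, 1040 and 345 without control replicates 1, 2, 3 and 8, and 381 and 373 without cyfluthrin replicates 5 and 7. With the replicate block 303 passed and 0 members. Same-numbered arrays deviated together at a correlation over 0.1 in 5 of 8 pairs (-0.14 to 0.58, median 0.23, against -0.04 for other pairs). For 7 of 16 arrays the best correlation was with the array of the same number. All 8 same-numbered pairs also shared a slide, while the other pairs included pairs on different slides. A shared number and a shared slide therefore cannot be told apart here. As not every pair was over 0.1 and no label ties the numbers, they were not used as pairs.

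In the slide contrast 16 passed, 0 among control arrays alone (265 unadjusted), 0 among cyfluthrin arrays alone (297 unadjusted), and 8 to 21 with arrays left out, namely 8, 8 and 10 without control replicates 4 and 8 and cyfluthrin replicate 7. Under every alternative run 0 members passed for exposure or slide by limma. The slide difference in high counts was -1 among control arrays alone (exact p = 0.943), -0.54 without control replicate 8 (exact p = 0.954), and -0.54 to 6.02 over arrays left out.
The causes of these shifts were not tested. Dim low sides, not well above background at 17 members, limit how far apart the sides can be measured.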
